A study of Rattus norvegicus with 6 samples.

Results

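The claudins and tight junction genes described here are 10 genes of epithelial cell contacts: Cldn1, Cldn2, Cldn3, Cldn4, Cldn7, Cldn8, Ocln, Tjp1, Cdh1 and Cdh16. The set was given by gene name, and every non-control probe of the array was taken whose accession belongs to 1 of these symbols or a synonym in the rat RefSeq gene table. All 10 genes were found, by 25 probes, among 31087 genes tested. The arrays came from the renal cortex of male Sprague-Dawley (Crl:CD(SD)) rats that were 5 weeks old when bought and were fed a basal diet. In the o-anisidine group, 3 rats were given o-anisidine hydrochloride for 4 weeks, 700 mg/kg/day, and in the control group 3 rats received water for the same time. Each rat gave 1 single-colour (Cy3) Agilent array. Levels are given as the log2 of the processed signal relative to the 75th percentile of the same array, so that 0 is a signal equal to that percentile, and differences are o-anisidine minus control on the same log2 scale. Levels of different probes are not compared, because probes differ in how brightly they bind.

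The cortex is a mixture of nephron segments, and a bulk array cannot tell fewer cells of a segment from less RNA in each of its cells. All 8 markers of the proximal tubule, which makes up much of the cortex, passed the filter on dim probes. Their summed level was 1327 to 1593 in o-anisidine rats and 1336 to 1477 in controls, as multiples of the 75th percentile. Such a sum weighs the brightest probes most. Of the 8, Lrp2 had every o-anisidine array below every control, against 8.88% of all genes, with a difference of -0.20 (SE 0.10). The groups of the other 7 overlapped. The probes well above background numbered 41670 to 43630 on each array, out of 61657. All 3 control arrays and o-anisidine replicate 3 lay on slide 1, and o-anisidine replicates 1 and 2 lay on slide 2 with another scan day, so that slide and group partly coincide and values within slide 1 rest on a single o-anisidine array. O-anisidine replicate 2 stood nearer to the controls than the other o-anisidine arrays in several genes named below.

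Tight junctions seal the space between neighbouring epithelial cells near their apical side. Claudins are small membrane proteins whose outer loops meet those of the next cell and form either a barrier or a charge-selective pore, and the claudins a tubule cell makes set what can pass between cells in that segment. Occludin, encoded by Ocln, lies in the same strands, and ZO-1, encoded by Tjp1, is the scaffold under the membrane that ties them to actin. Cadherins hold cells together just below, in the adherens junction. o-Anisidine is an aromatic amine known as a carcinogen of the rodent urinary bladder.

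None of the 10 genes differed between the groups past the threshold. In limma with Benjamini-Hochberg adjustment over all genes, 0 of 10 were called higher, against 0.0354% of all genes, and 0 of 10 were called lower, against 0.0257%. At an unadjusted p under 0.05, 2 genes were higher, against 6.36% of all genes, and none was lower, against 5.14%. These 2 genes, Cldn3 and Cldn4, were also the only ones of the 10 whose groups did not overlap, with every o-anisidine array above every control array. This holds for the brightest probe of each gene, which stands for it in the fit. A dimmer Cldn1 probe also lay wholly higher, and the groups of the second Cldn4 probe overlapped. Of all genes, 9.55% lay wholly higher after o-anisidine and 8.88% wholly lower. Fitted differences were above 0 for 6 of the 10 genes, against 50.9% of all genes, and their median was 0.03, against 0.0037 over all genes. Every one of the 25 probes was well above background on all 6 arrays, so the filter on dim probes did not choose among them.

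**Figure D1:**
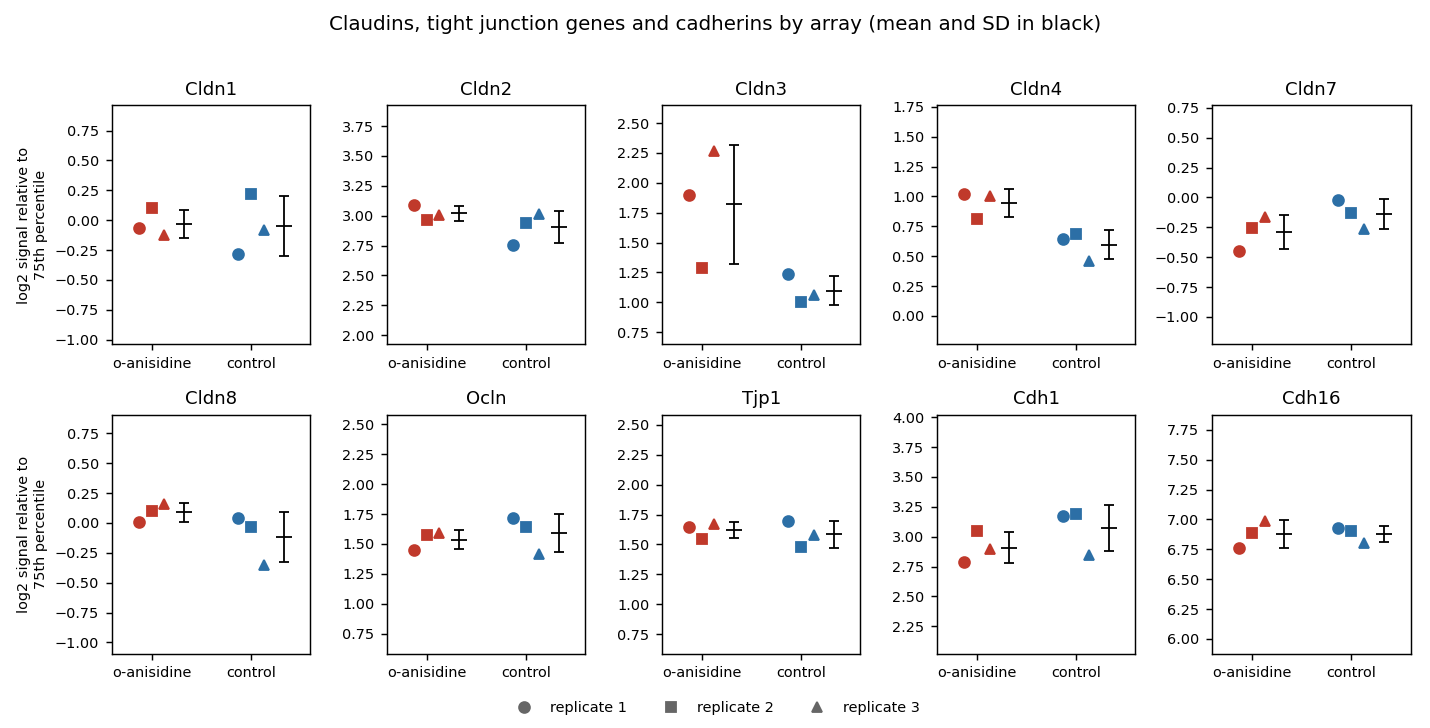
Log2 signal relative to the array's 75th percentile for the brightest probe of each of the 10 genes, with o-anisidine arrays (red) left of control arrays (blue), 1 point per rat, marker shape giving the replicate and black bars the mean and SD of 3 arrays. Cldn3 and Cldn4 have every o-anisidine array above every control array, and the groups of the other 8 genes overlap.

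The sequence before the transcription start is shown for the genes whose promoter holds the E-box letters CAGGTG, the site read by the Snail and Zeb repressors that are best known for lowering Cdh1. RefSeq promoters of the GRCr8 build were matched for 6 of the 10 genes, Cldn1, Cldn3, Cldn7, Cldn8, Ocln and Tjp1, and for Cldn14, Cldn17, Cldn22 and Cldn24, which are described further on. The 250 bases before each start are printed from 5′ to 3′ on the gene's own strand, and the capitals mark every match to any of the motifs searched.
Cldn3, chr12:27346548-27346797, minus strand: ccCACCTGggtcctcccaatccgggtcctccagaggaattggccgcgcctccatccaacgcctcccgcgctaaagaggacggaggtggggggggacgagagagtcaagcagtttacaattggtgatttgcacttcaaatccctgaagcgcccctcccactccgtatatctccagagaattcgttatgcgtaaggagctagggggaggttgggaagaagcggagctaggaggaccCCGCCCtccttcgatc
Cldn7, chr10:55188420-55188669, plus strand: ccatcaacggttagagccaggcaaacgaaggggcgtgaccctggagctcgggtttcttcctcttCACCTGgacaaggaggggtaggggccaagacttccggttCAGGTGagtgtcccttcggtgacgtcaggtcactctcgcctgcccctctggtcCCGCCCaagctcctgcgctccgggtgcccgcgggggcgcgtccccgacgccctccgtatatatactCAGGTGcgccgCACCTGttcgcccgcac
Ocln, chr2:33441199-33441448, minus strand: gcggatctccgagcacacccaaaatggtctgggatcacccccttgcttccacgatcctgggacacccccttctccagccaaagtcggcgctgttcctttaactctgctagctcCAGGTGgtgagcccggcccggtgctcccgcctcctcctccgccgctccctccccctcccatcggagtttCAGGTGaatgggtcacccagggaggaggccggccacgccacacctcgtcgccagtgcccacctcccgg
Cldn14, chr11:46711739-46711988, minus strand: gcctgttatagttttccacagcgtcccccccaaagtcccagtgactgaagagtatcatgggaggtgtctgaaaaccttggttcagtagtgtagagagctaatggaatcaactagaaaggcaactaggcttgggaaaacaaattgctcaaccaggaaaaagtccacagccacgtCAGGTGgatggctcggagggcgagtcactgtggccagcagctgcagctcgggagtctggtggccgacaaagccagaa
CAGGTG or its reverse complement CACCTG was found in 3 of the 6 promoters, and in 15.9% of all 33469 promoters of the same length. Cldn3 has 1 copy, 243 bases before the start, and Cldn7 has 4, of which the nearest ends 12 bases before it. Ocln has 2 copies, 132 and 63 bases before the start, and Cldn14 has 1 at 72 bases. The promoters of Cldn17, Cldn22 and Cldn24 held none of the 4 motifs searched. A GC box of the Sp factors, GGGCGG or CCGCCC, was in 3 of the 6, Cldn1, Cldn3 and Cldn7, and in 30.5% of all promoters. The grainyhead-like site AACCNGTT, or AACNGGTT on the other strand, was in Tjp1 alone of the 6, and in 1.76% of all promoters. The HNF4 site CAAAGTCCA, or TGGACTTTG on the other strand, was in none of the 6, and in 0.338% of all promoters. No 2 different motifs overlapped. These matches describe letters in a window and were not tested for binding.

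The claudins of the distal nephron and collecting duct held both genes whose groups did not overlap on the brightest probe. Cldn3, a sealing claudin of these segments, had levels of 1.90, 1.29 and 2.27 on the o-anisidine arrays, against 1.23, 1.00 and 1.06 on the control arrays. Replicates 1 and 3 of o-anisidine stood well above the controls, while replicate 2 lay just above the highest control. The SD over 3 arrays was 0.50 after o-anisidine and 0.12 in controls. The difference was 0.72 with a standard error of 0.25, a 1.65-fold higher signal with a 95% interval of 1.09 to 2.50 not adjusted for the number of genes, and its adjusted p in limma was 0.370. A second Cldn3 probe read 0.43, 0.22 and 0.38 after o-anisidine and 0.08, 0.15 and 0.01 in controls, again without overlap, with a smaller difference of 0.26 (SE 0.09). Within slide 1 the difference of the first probe was 1.17, from 1 o-anisidine array, with an adjusted p of 0.183 in limma.

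Cldn4, which in collecting duct cells pairs with claudin-8 in a path for chloride between cells, had levels of 1.02, 0.81 and 1.00 after o-anisidine and 0.64, 0.69 and 0.46 in controls. The groups were apart and each was tight, with means of 0.94 ± 0.12 after o-anisidine and 0.60 ± 0.12 in controls (SD, n = 3 each). The difference of 0.35 had a standard error of 0.10, which is 1.27-fold with a 95% interval of 1.08 to 1.51, and its adjusted p in limma was 0.303. A second Cldn4 probe gave -1.42, -1.41 and -1.35 after o-anisidine against -1.53, -1.35 and -1.73 in controls. There the groups overlapped, with a difference of 0.14 (SE 0.11). Cldn3 and Cldn4 are neighbours on chromosome 12 in the RefSeq table. The nearest tested genes on either side of the pair are Stx1a and Mettl27, with differences of 0.08 (SE 0.20) and 0.34 (SE 0.26), and the groups of both overlapped.

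Cldn8, the partner of claudin-4 in the collecting duct, read 0.00, 0.10 and 0.16 after o-anisidine and 0.04, -0.03 and -0.36 in controls. Control replicate 3 was the low array, and the difference of 0.20 (SE 0.12) had an adjusted p of 0.568 in limma. Its second probe differed by 0.05. Cldn7, which lies mostly along the lateral membrane of distal cells, was the 1 gene of the segment with a difference below 0. It read -0.44, -0.26 and -0.17 after o-anisidine, against -0.02, -0.13 and -0.27 in controls. That is a difference of -0.15 (SE 0.11) with overlapping groups and an adjusted p of 0.631 in limma. The 4 distal claudins had a median difference of 0.28.

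Marker genes of the principal cells of the collecting duct mostly had differences below 0. Of 7 principal cell genes tested, 6 had differences below 0 and 3 were wholly lower after o-anisidine, against 8.88% of all genes. None was called in limma, and the median was -0.48. An unadjusted p under 0.05 was found for 5, against 6.36% of all genes higher and 5.14% lower. Their summed level was 119 to 169 after o-anisidine, against 207 to 216 in controls, as multiples of the 75th percentile. The brightest probe, that of Aqp2, weighs most in this sum. Aqp4 was the 1 gene of the 7 with a difference above 0, of 0.13 (SE 0.15). Scnn1b, a subunit of the epithelial sodium channel, read 3.57, 3.50 and 3.61 after o-anisidine and 4.12, 4.17 and 4.03 in controls, a difference of -0.55 (SE 0.07) with an adjusted p of 0.101 in limma. It was called, with an adjusted p of 0.0334, when limma's variance was estimated with a trend and robustly. Aqp2, the vasopressin-regulated water channel, differed by -0.58 (SE 0.22), and Avpr2, the vasopressin receptor, by -0.78 (SE 0.22), each wholly lower after o-anisidine. Intercalated cell genes overlapped for all 7 tested, with a median of -0.09. The part of these cell types in the values of Cldn3, Cldn4, Cldn7 and Cldn8 was not tested.

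In the proximal tubule, Cldn2 forms the pore that lets sodium and water pass between cells. Its levels were 3.09, 2.96 and 3.01 after o-anisidine and 2.76, 2.94 and 3.01 in controls. Control replicate 1 was lowest and o-anisidine replicate 1 highest, and the groups overlapped. The difference was 0.11 (SE 0.09), its 95% interval ran from -0.11 to 0.34, and the adjusted p in limma was 0.669. A second Cldn2 probe differed by 0.01.

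Cldn1 is a barrier claudin of the parietal cells that line the Bowman capsule, and its probes disagreed. The brightest probe, which stands for the gene in the fit, read -0.07, 0.10 and -0.13 after o-anisidine against -0.28, 0.22 and -0.08 in controls. That difference was 0.02 (SE 0.14), with a 95% interval of -0.33 to 0.37 and an adjusted p of 0.973 in limma. A second probe read -0.16, -0.35 and -0.54 after o-anisidine and -1.21, -1.01 and -0.96 in controls. Here every o-anisidine array was above every control, by a difference of 0.71 (SE 0.12), with an adjusted p of 0.126 in the limma fit over all probes. The dimmest probe differed by -0.10 with overlapping groups. The mean of the 3 probes differed by 0.21, and within slide 1 the brightest probe differed by -0.08, so no direction is given for Cldn1. Podocyte and parietal cell markers had a median difference of -0.04 over 8 genes tested.

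**Figure D2:**
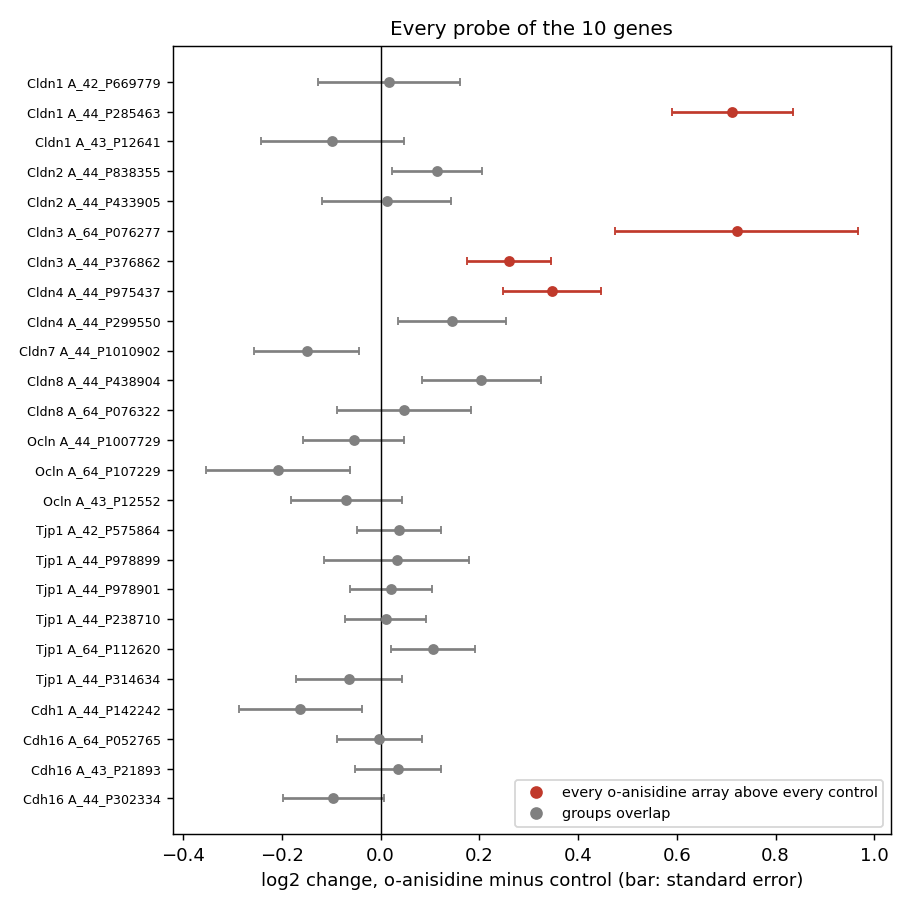
Log2 difference, o-anisidine minus control, for each of the 25 probes of the 10 genes, with horizontal bars of 1 standard error; each label gives the gene and the array's name for the probe, brightest probe of a gene first. Red marks the 4 probes with every o-anisidine array above every control (1 of Cldn1, both of Cldn3, 1 of Cldn4), and no probe lay wholly lower.

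Both tight junction genes that all tubule segments share had overlapping groups. Ocln read 1.45, 1.57 and 1.59 after o-anisidine and 1.72, 1.64 and 1.41 in controls. Its groups overlapped, the difference was -0.05 (SE 0.10) with an adjusted p of 0.869 in limma, and its 3 probes differed by -0.21 to -0.05. Tjp1 read 1.65, 1.55 and 1.67 after o-anisidine and 1.70, 1.48 and 1.58 in controls. That is a difference of 0.04 (SE 0.09) with a 95% interval of -0.17 to 0.25 and an adjusted p of 0.897 in limma. All 6 Tjp1 probes overlapped, with differences between -0.06 and 0.11.

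The groups of both cadherins overlapped as well. Cdh1, or E-cadherin, has 1 probe, which read 2.79, 3.04 and 2.89 after o-anisidine against 3.17, 3.19 and 2.85 in controls. Control replicate 3 was as low as the o-anisidine arrays, and the difference of -0.16 (SE 0.12) had an adjusted p of 0.655 in limma and a 95% interval of -0.47 to 0.14. Cdh16, the kidney-specific cadherin made along most of the tubule, read 6.76, 6.89 and 6.99 after o-anisidine and 6.93, 6.91 and 6.80 in controls. Its groups overlapped, the fold was 0.998 with a 95% interval of 0.861 to 1.16, and the adjusted p in limma was 0.995. The 3 Cdh16 probes differed by -0.10 to 0.04, and the brightest by 0.11 within slide 1.

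Among the claudins outside the 10, 17 of 18 listed genes had a probe and 13 were tested. None was called in either direction. Wholly higher after o-anisidine were 4, against 9.55% of all genes, and 1 was wholly lower, against 8.88%. An unadjusted p under 0.05 in limma was found for 5, against 6.36% of all genes higher and 5.14% lower. The median difference was 0.03. Without Cldn6, which passed the filter through the controls alone, the counts were the same and the median was 0.05. The differences of these claudins reached further than those of the 10 genes, from -0.27 to 2.89. Cldn11, Cldn15, Cldn20 and Cldn34a had probes but did not pass the filter on dim probes, and Cldn34b was not analysed here.

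Cldn14 is the claudin of the thick ascending limb that the calcium-sensing receptor controls and that closes the cation pore of claudin-16 and claudin-19. Its levels were -0.48, -3.36 and -0.41 after o-anisidine and -4.00, -4.48 and -4.45 in controls. O-anisidine replicates 1 and 3 were far above all other arrays, and replicate 2 was much nearer to the controls, though still above them. The difference was 2.89 with a standard error of 0.80, or 7.42-fold, and the adjusted p in limma was 0.287. Without o-anisidine replicate 2, the lowest of its group, the difference was 3.86 and Cldn14 was called, with an adjusted p of 0.0124 in limma. Leaving out any other array gave differences of 2.39 to 3.05 and no call, with adjusted p of 0.323 to 0.526 in limma. Within slide 1 it was 3.90, from 1 o-anisidine array, with an adjusted p of 0.118 in limma. A second, also dim, Cldn14 probe read -2.44, -4.14 and -2.45 after o-anisidine and -3.84, -3.58 and -4.01 in controls, with the same 2 arrays high, overlapping groups and a difference of 0.80 (SE 0.47). On either side of Cldn14 on chromosome 11 the tested neighbours Chaf1b and Sim2 differed by 0.52 (SE 0.23) and 0.13 (SE 0.14), and their groups overlapped.

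The genes of the pore that claudin-14 acts on had overlapping groups. Cldn16 read -0.85, -0.44 and -0.60 after o-anisidine and -0.39, -0.06 and -0.76 in controls, a difference of -0.23 (SE 0.20). Cldn19 read 2.58, 2.35 and 2.33 after o-anisidine and 2.96, 2.77 and 2.36 in controls, a difference of -0.27 (SE 0.17). Cldn10, whose isoforms form an anion pore in the proximal tubule and a cation pore in the thick ascending limb, differed by -0.11 (SE 0.09). The groups of Cldn10 overlapped too, and the 5 thick ascending limb markers tested, which include them, had a median of -0.16.

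Cldn22 and Cldn24 are neighbours on chromosome 16. Cldn22 read -2.14, -1.59 and -1.77 after o-anisidine, against -2.56, -3.26 and -3.98 in controls. The o-anisidine arrays were close together and the controls were spread over more than 1 log2 unit. The difference was 1.43 (SE 0.36), 2.70-fold, with an adjusted p of 0.254 in limma, and a second Cldn22 probe differed by 0.89 (SE 0.23), also without overlap. Cldn24 read -1.85, -1.50 and -1.62 after o-anisidine and -2.16, -3.13 and -4.23 in controls, with the controls in the same order. Its difference was 1.52 (SE 0.49) with an adjusted p of 0.358 in limma, and it was 0.99 without control replicate 3, the lowest array. Cldn22 and Cldn24 are paralogs, and the probes' sequences were not checked for shared binding.

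Cldn17, an anion-selective claudin, read -4.88, -5.32 and -4.82 after o-anisidine and -5.41, -5.51 and -5.74 in controls, all near the low end of the arrays. The difference was 0.55 (SE 0.16) with an adjusted p of 0.315 in limma. A second Cldn17 probe was not well above background on any array and did not pass the filter. Cldn9 was the only other claudin wholly lower after o-anisidine, at 1.51, 1.46 and 1.47 against 1.66, 1.59 and 1.71 in controls. That difference was small, -0.17 (SE 0.07), with an adjusted p of 0.428 in limma. A dimmer Cldn9 probe differed by -0.18 (SE 0.14) with overlapping groups. Cldn5, the claudin of blood vessels, differed by -0.14, Cldn18 by 0.03 and Cldn23 by 0.07, all with overlapping groups. The differences of Cldn18 and Cldn23 turned below 0 within slide 1. Cldn6 was not well above background on o-anisidine replicate 3 and passed the filter through the controls alone, so its difference is not given. Cldn12 differed by 0.17 on its brightest probe and by -0.53 on a dimmer one, wholly lower after o-anisidine, so these probes disagreed. The other dim Cldn12 probe was well above background on 2 of 3 o-anisidine arrays and passed the filter through the controls alone, so its difference is not given.

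**Figure D3:**
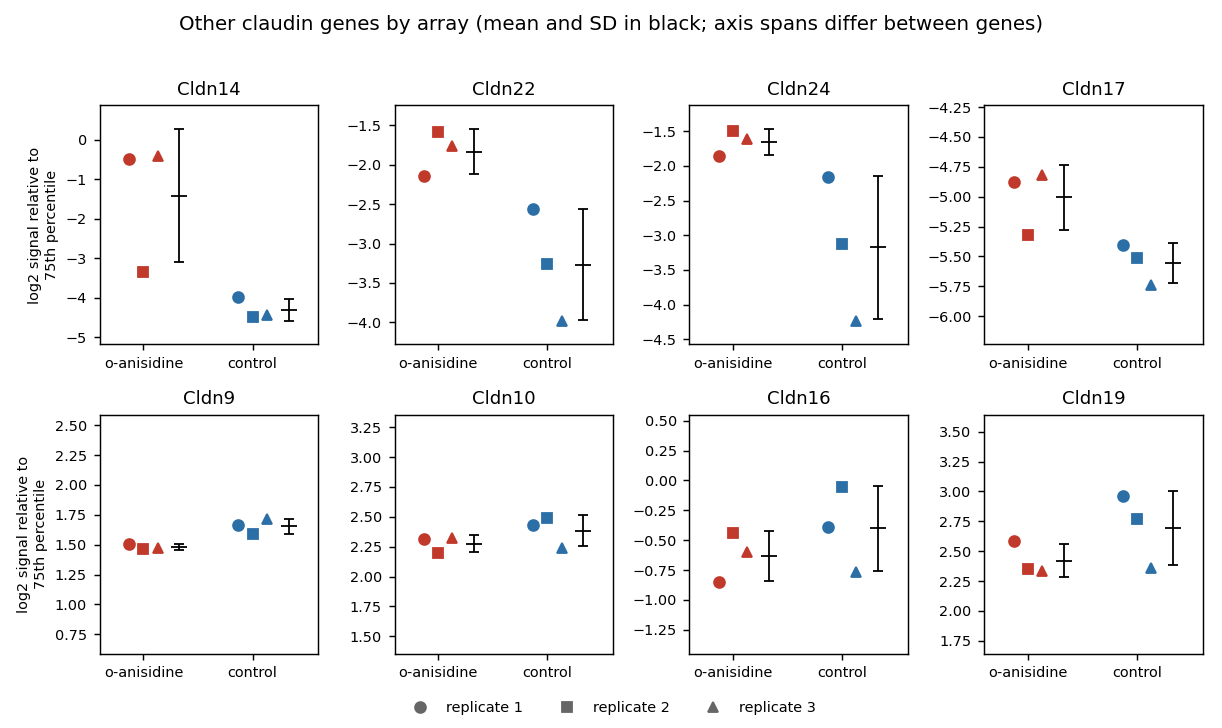
Log2 signal relative to the array's 75th percentile for 8 claudins outside the 10 genes, with o-anisidine arrays (red) left of control arrays (blue), 1 point per rat, marker shape giving the replicate and black bars the mean and SD of 3 arrays. Cldn14 is high on o-anisidine replicates 1 and 3 and near the controls on replicate 2, Cldn22, Cldn24 and Cldn17 are wholly higher after o-anisidine, Cldn9 is wholly lower, and Cldn10, Cldn16 and Cldn19 overlap.

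Of the 6 lists of other junction genes, the claudins above included, 80 genes were tested and none was called in limma. An unadjusted p under 0.05 was found for 14, against 6.36% of all genes higher and 5.14% lower. Wholly higher after o-anisidine were 11, against 9.55% of all genes, and 9 were wholly lower, against 8.88%. The median difference was 0.02. Among 14 other membrane proteins and scaffolds of the tight junction, 2 were wholly higher after o-anisidine and none wholly lower. Ybx3, a Y-box factor that binds the ZO-1 scaffold and is held at the junction in cultured canine cells, read 3.09, 2.93 and 2.76 after o-anisidine and 2.04, 1.75 and 1.87 in controls. The groups were apart, by a difference of 1.04 (SE 0.12), and the adjusted p in limma was 0.0888. It was called with normexp background correction, with an adjusted p of 0.0271, and with a trend and robust variance in limma, with an adjusted p of 0.0315. Jam2, a junctional adhesion molecule, read 0.64, 0.66 and 0.71 after o-anisidine and 0.38, 0.41 and 0.37 in controls, a difference of 0.29 (SE 0.06) with an adjusted p of 0.207 in limma. Esam, an adhesion molecule of endothelium, differed by 0.16 (SE 0.09) with overlapping groups.

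In the polarity complexes, which place the junction along the cell side, 1 of 16 genes tested was wholly higher and 4 wholly lower, with a median of -0.06. Over all genes, 9.55% were wholly higher and 8.88% wholly lower. Pard6g, an adaptor of the PAR complex, read -4.13, -3.48 and -3.61 after o-anisidine and -4.47, -4.51 and -4.33 in controls, a difference of 0.69 (SE 0.18) that was 0.29 with normexp background correction. Mpdz and Magi3, both multi-PDZ scaffolds under the tight junction, differed by -0.38 (SE 0.13) and -0.23 (SE 0.08), each wholly lower after o-anisidine. Of 16 adherens junction and desmosome genes, 4 were wholly higher and 1 wholly lower, with a median of 0.03. Ctnnd1, the p120 catenin that keeps cadherins at the membrane, read -0.29, -0.34 and -0.31 after o-anisidine against -0.56, -0.60 and -0.60 in controls. That difference was 0.28 (SE 0.06) with an adjusted p of 0.212 in limma, but the mean of all its kept probes differed by -0.01. Cdh3, or P-cadherin, differed by -0.41 (SE 0.17) with overlapping groups, and Epcam, which binds claudin-7, by 0.15 (SE 0.06), wholly higher.

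Among transcription factors tied to junction genes, 12 were tested, none was wholly higher and 2 were wholly lower after o-anisidine. The shares over all genes were 9.55% wholly higher and 8.88% wholly lower. Hnf4a, a nuclear receptor of the proximal tubule, read -0.04, -0.32 and -0.22 after o-anisidine and 0.57, 0.36 and 0.63 in controls. The groups were clearly apart, by a difference of -0.71 (SE 0.11), and the adjusted p in limma was 0.115. Zeb2 is 1 of the repressors known to read CAGGTG, and its binding to the promoters shown was not tested. Its levels were 0.33, 0.30 and -0.08 after o-anisidine and 0.79, 0.63 and 0.75 in controls. That is a difference of -0.54 (SE 0.13) with an adjusted p of 0.229 in limma. Ovol2, which holds back Zeb factors in mouse epithelium, differed by -0.26 (SE 0.12) with overlapping groups. The claudin kinases and proteases had 9 genes tested, none wholly higher and 1 wholly lower. Wnk1, a kinase upstream of distal salt transport, read 4.05, 4.54 and 4.22 after o-anisidine and 4.73, 4.80 and 4.74 in controls, a difference of -0.48 (SE 0.13). Wnk4, a related kinase that phosphorylates claudins, differed by 0.13 (SE 0.10), and Mmp9, a secreted protease, by -0.72 (SE 0.49), both with overlapping groups. Mmp9 differed by -0.26 with normexp and by -1.67 within slide 1.

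**Figure D4:**
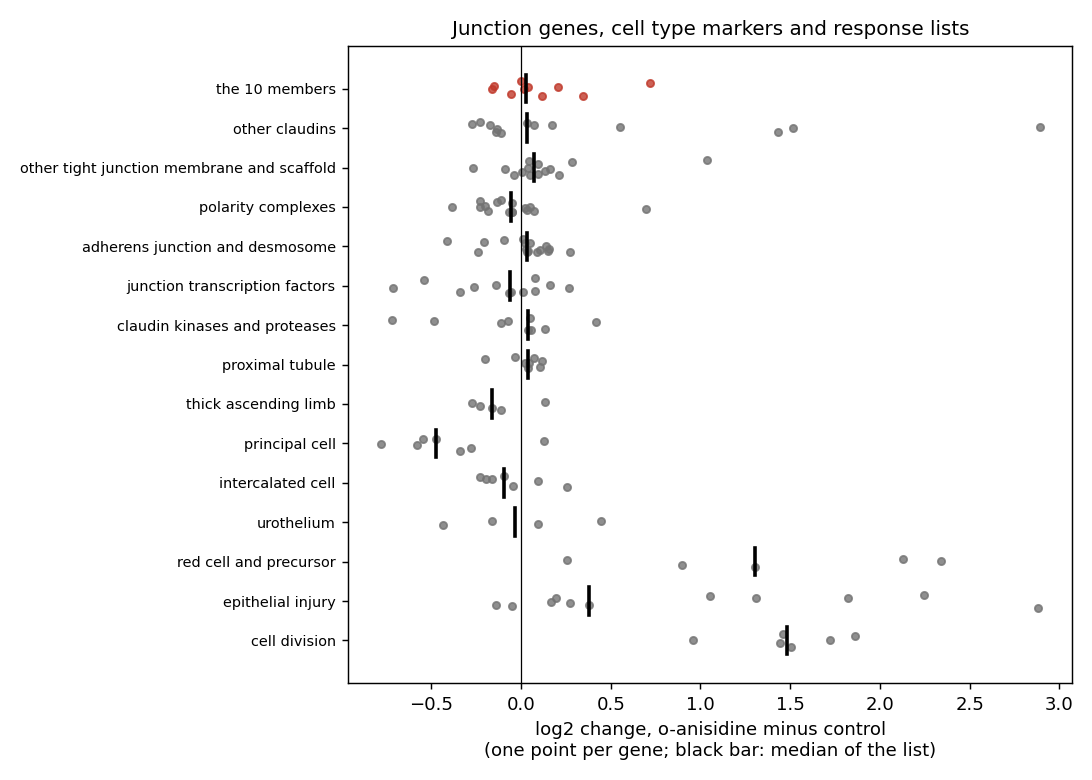
Log2 difference, o-anisidine minus control, 1 point per tested gene, for the 10 genes (red), the 6 lists of other junction genes, markers of cell types, and lists of injury and cell division genes, with a black bar at the median of each list; vertical scatter within a list has no meaning. The medians of the junction lists lie between -0.06 and 0.07, that of principal cell genes at -0.48, that of red cell genes at 1.30 and that of cell division genes, with Aurkb included, at 1.48.

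Genes of cell division, and many of tubular injury, read higher after o-anisidine on the same arrays. Of 6 cell division genes tested, 5 were well above background on all 6 arrays, and these 5 were wholly higher after o-anisidine, with a median difference of 1.51. Relative to the controls' mean, their median gene was shifted by 1.63, 1.07 and 1.83 on o-anisidine replicates 1, 2 and 3. The other gene, Aurkb, was well above background on 2 of 3 control arrays and passed the filter through the o-anisidine group alone, so it is not counted. Cdk1, the kinase that drives mitosis, read 2.01, 1.45 and 2.19 after o-anisidine and 0.49, 0.53 and 0.11 in controls. Of 11 injury genes tested, 6 were wholly higher, with a median of 0.38. Over all genes, 9.55% were wholly higher, and 6.36% were higher at an unadjusted p under 0.05 in limma. The groups of the other 5 injury genes overlapped. Of these, Havcr1 read 0.46, -4.39 and -3.02 after o-anisidine and -4.85, -3.61 and -5.23 in controls. Cd24 differed by 0.38, Krt18 by 0.17, Krt7 by -0.14 and Vim by -0.05. Spp1, the osteopontin gene, read 6.39, 3.16 and 5.16 after o-anisidine, against 3.15, 3.03 and 3.07 in controls, and Lcn2, a marker of tubular damage, read -0.84, -1.80 and -1.09 after o-anisidine, against -2.24, -1.87 and -2.78 in controls. In Spp1 and Lcn2, as in Cldn3 and Cldn14, o-anisidine replicate 2 was the array nearest to the controls. Other genes differed in this: Krt19 had replicate 3 nearest, and Cldn22 and Cldn24 were highest on replicate 2. Krt19, a keratin of simple epithelia, read 0.52, -0.22 and -0.75 after o-anisidine and -2.86, -3.39 and -2.83 in controls, a difference of 2.88 (SE 0.34) with an adjusted p of 0.0894 in limma. No gene of the division or injury lists was called in limma, and 5 of division and 4 of injury had an unadjusted p under 0.05. Red cell genes moved on these arrays too, with 4 of 5 tested wholly higher after o-anisidine, a median difference of 1.30 and a summed level of 1078 to 1301 after o-anisidine, against 522 to 722 in controls. Ahsp, the chaperone of alpha-globin, read 1.92, 2.31 and 1.96 after o-anisidine and -0.63, -0.29 and 0.09 in controls. That difference of 2.34 (SE 0.21) was called, with an adjusted p of 0.0419 in limma, and the call was lost without any 1 of the 6 arrays, with adjusted p of 0.0624 to 0.174, and within slide 1, where the difference was 2.24. The part of division, injury and red cells in the claudin values was not tested. Urothelial markers, which would show tissue of the renal pelvis, summed to 0.338 to 0.461 after o-anisidine and 0.329 to 0.488 in controls, with 4 of 8 listed genes tested and all 4 overlapping, of which Upk3a was well above background on 2 of 3 o-anisidine arrays.

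**Figure D5:**
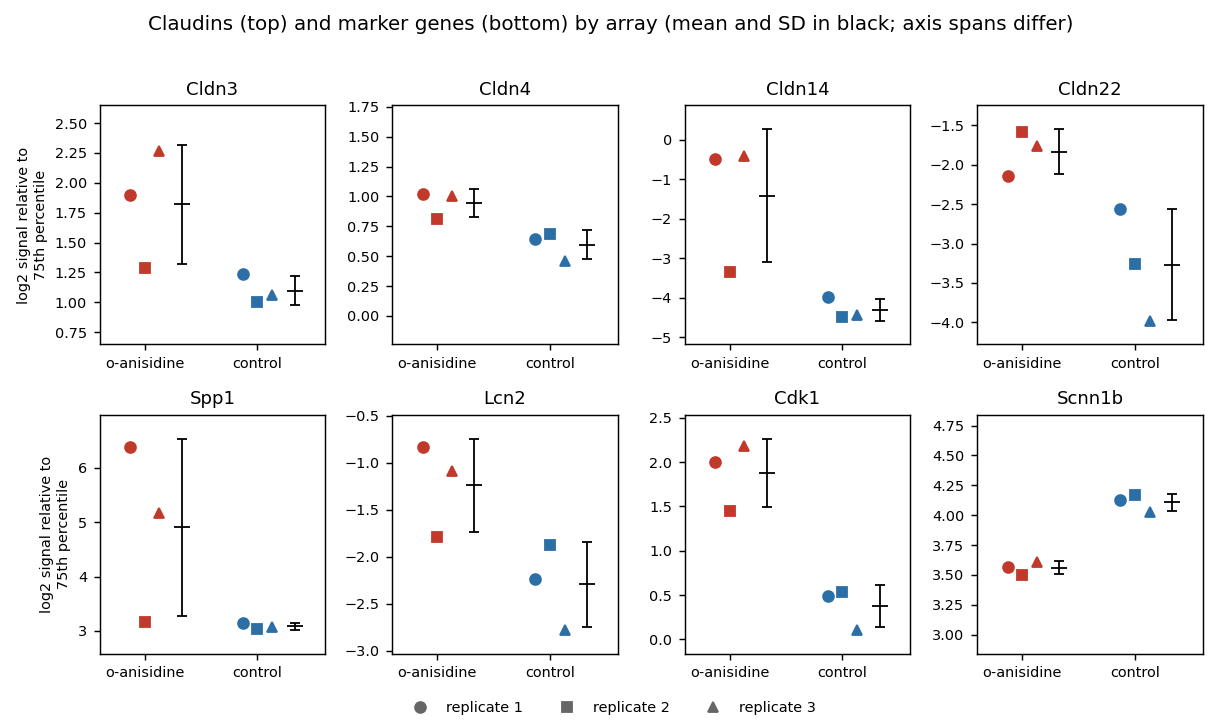
Log2 signal relative to the array's 75th percentile for 4 claudins (top) and 4 marker genes (bottom), with o-anisidine arrays (red) left of control arrays (blue), 1 point per rat, marker shape giving the replicate and black bars the mean and SD of 3 arrays. Replicate 2 (square) is the o-anisidine array nearest to the controls in Cldn3, Cldn4, Cldn14, Spp1, Lcn2 and Cdk1, while Cldn22 is highest on that array and Scnn1b is lower on all 3.

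Over the 6 arrays, the genes most like Cldn4 by Pearson correlation of log2 levels were Espl1 at 0.996, Tpx2 at 0.996, Ckap2 at 0.995, Kif18b at 0.993 and Ttk at 0.992. For Cldn3 they were Atp1b3 at 0.992, Cdo1 at 0.989, Gcnt2 at 0.988, Ndrg4 at 0.987 and Serpinb8 at 0.986. These are the highest of 12015 genes with a symbol over 6 points that share the difference between groups and the slides, so they describe these arrays and no more. None of these genes was called in limma.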

How the data were processed

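Values came from 6 single-colour arrays, 1 per rat, grouped by their titles. The deposited spot intensity values were made with Agilent Feature Extraction 10.7.1.1, per the file headers, and 10.7, per the submitters' processing notes. The processed intensity is background-subtracted and not scaled between arrays, per the file headers, and the median signal and local background intensity are uncorrected. The flags for outlier spots and for spots well above background are that software's. The authors' deposited table holds intensity divided by each array's 75th percentile, as comparison with the scanner files showed, with columns 1, 2 and 3 of each group matching scanner replicates 3, 1 and 2. Replicate numbers here follow the scanner files, and which numbering is right is unknown.

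Of 62976 spots, 61657 were non-control probes. Log2 processed signal was scaled to the array's 75th percentile. A probe was kept if no array gave it an outlier flag (16 did not pass) and if 1 group or both had it well above background throughout, which left 42036. Accessions were matched to RefSeq names of the GRCr8 assembly (27460 probes, 15284 symbols), while the array's own design used rn4, per the file headers. Each gene was represented by its kept probe of highest mean. Groups were compared over 31087 genes with limma 3.58.1 in R 4.3.3 (lmFit and eBayes, two-sided, 4 residual and 2.11 prior degrees of freedom), with Benjamini-Hochberg adjustment and a threshold of 0.05. "Wholly higher" or "lower" means that the groups' arrays did not overlap. The number of arrays limits the precision.

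The 10 genes, the other lists and the tests were chosen with earlier results of these data known. In each junction list the text names genes called or, with none called, the 3 of smallest p, and any claudin. Marker genes and chromosome neighbours outside this rule were chosen after their values were seen. The alternatives tried changed the background correction (normexp, offset 50, on the median signal, since no mean signal column was found in the files), the normalization, the filter, the choice of probe, the variance model, the source of values, the slide, the replicate block and the arrays included.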

Additional observations from a re-analysis of the deposited data

How the results depend on the processing

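Under 17 alternatives no call changed for any of the 10 genes. Of 170 pairs of gene and alternative, 158 kept the direction, 12 reversed it, and 6 genes never reversed. Many of these pairs could not reverse. The 2 other filters, the trend and robust variance and the replicate block left the estimate of each of the 10 genes unchanged. Testing every probe did so too, but only because the brightest probe of each gene was again the 1 compared. In Cldn1, Cdh16 and Tjp1 a dimmer probe had a difference of the other sign. With the slide as a block the estimates equalled those within slide 1. The count of 158 is therefore no measure of robustness. Cldn3 stayed between 0.49 and 1.17 and Cldn4 between 0.25 and 0.41, with adjusted p in limma of 0.127 to 0.599 and 0.158 to 0.547. Among the 10 genes, reversals were of small differences, while Ctnnd1, Cldn12 and Cldn23 moved further. With the slide as a block, and within slide 1, the value was -0.0787 for Cldn1, 0.11 for Cdh16, -0.0855 for Cldn18 and -0.29 for Cldn23. With normexp Ocln was 0.0514, and with the mean of kept probes Ctnnd1 was -0.00606 and Cldn12 -0.39. Leaving out 1 array at a time gave -0.10 to 0.15 for Cldn1, -0.0579 to 0.0574 for Cdh16, -0.14 to 0.0105 for Ocln and -0.0171 to 0.0933 for Tjp1. It gave -0.0163 to 0.0929 for Cldn18, -0.0526 to 0.25 for Cldn23 and -0.0300 to 0.30 for Stx1a. No alternative moved the median of all genes by more than 0.0385.

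The counts over all genes (11 higher and 8 lower) moved more: 68 higher and 18 lower with normexp, 91 and 29 with a trend and robust variance, 5 higher with no filter, 19 higher with every probe tested, 5 lower with probes well above background on all 6 arrays, 2 and 1 with the slide as a block, 1 and 1 within slide 1, and 2 to 16 higher and 1 to 5 lower without 1 array. The replicate block gave 1 higher and 0 lower, and of the genes named it changed the call of Ahsp (adjusted p in limma 0.129). Same-numbered arrays deviated together with correlations of only 0.020, 0.077 and 0.012, and not every array correlated best with its own number. These low values cannot decide whether the numbers pair the rats, and the main fit used no pairing. Of the other junction genes 1 was called with normexp and with the trend and robust variance (Ybx3 both times), and 0 to 1 without 1 array (Cldn14 without o-anisidine replicate 2). With normexp Krt19 and Cdk1 were also called (adjusted p in limma 0.0357 and 0.0453), as was Krt19 with the trend and robust variance (0.0430). Normexp on the mean signal, as first planned, was not run. Cldn14 and Cldn17 lay far below the 75th percentile, and normexp gave 2.01 and 0.27 for them, as it gave 0.29 for the dim Pard6g. With the slide as a block Mmp9 was -1.67. Ahsp was not called with no filter (0.107) or with the slide as a block (0.162). The cause of these moves was not tested.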
